A study of Mus musculus with 6 samples.

Results

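The 10 genes described here encode enzymes, a binding protein and receptors of retinoid (vitamin A) metabolism: Adh1, Rdh16, Dhrs3, Lrat, Rbp2, Aldh1a1, Aldh1a2, Aldh1a3, Rara and Rarb. They were taken by gene symbol from 24346 entries listed for each library, and all 10 were found. RNA was taken from the epithelium of 3 stretches of colon (proximal, middle and distal) in untreated mice of the inbred C57BL/6J strain, all wild-type. Each region had 1 male and 1 female library, 6 in all (n = 2 per region), and every group shared this genotype, strain and lack of treatment. The labels give neither the age of the mice, nor the number of mice per library, nor whether any mice gave more than 1 region, so p-values measure only how these libraries vary, part of which may be technical. Expression is given as FPKM, fragment numbers corrected for the length of the transcript and the size of the library, so levels of different genes can be set against each other.

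Vitamin A reaches cells as retinol, retinyl esters or carotenoids. Retinol is oxidised reversibly to retinal by alcohol dehydrogenases and short-chain dehydrogenases, and retinal is oxidised irreversibly to retinoic acid by the ALDH1A enzymes. Retinoic acid acts through nuclear RAR and RXR receptors, which bind paired hexamers in DNA, and is broken down by CYP26 enzymes. In the intestine this pathway is known for its roles in vitamin A uptake, epithelial differentiation and mucosal immunity.

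Adh1 and Rdh16, which oxidise retinol, rose from proximal to distal colon in both sexes, whereas Aldh1a1, which makes retinoic acid, and Lrat, which esterifies retinol, fell. Rbp2, Dhrs3 and Rara gave no call in any comparison. Aldh1a2 and Rarb did not exceed 0.295 and 0.354 FPKM in any of the 6 libraries, and Aldh1a3 exceeded 1 FPKM only in the distal libraries. Regions were compared on log2(FPKM + 1) with limma, in a model of region and sex over all 6 libraries, with Benjamini-Hochberg adjustment over 11815 genes that reached 1 FPKM in at least 2 libraries. A call is an adjusted p under 0.05. Of the 10 genes, 8 passed this filter. Between distal and proximal colon 3 were called higher and 2 lower, against 6.47% and 7.64% of all tested genes, or 14.1% in either direction. The same 5 had distal libraries that both lay above or both below the proximal ones, as did 30.8% of all tested genes upwards and 29.5% downwards, 60.3% in all. Over the 8 genes the median size of the log2 difference was 1.74, against 0.21 over all tested genes. The calls, overlaps and median include Aldh1a3, which passed the filter through its distal libraries alone, so a difference was built into its selection. The 10 genes were also chosen with earlier results of these data known. The bulk libraries cannot tell fewer cells of a type from less RNA per cell.

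**Figure D1:**
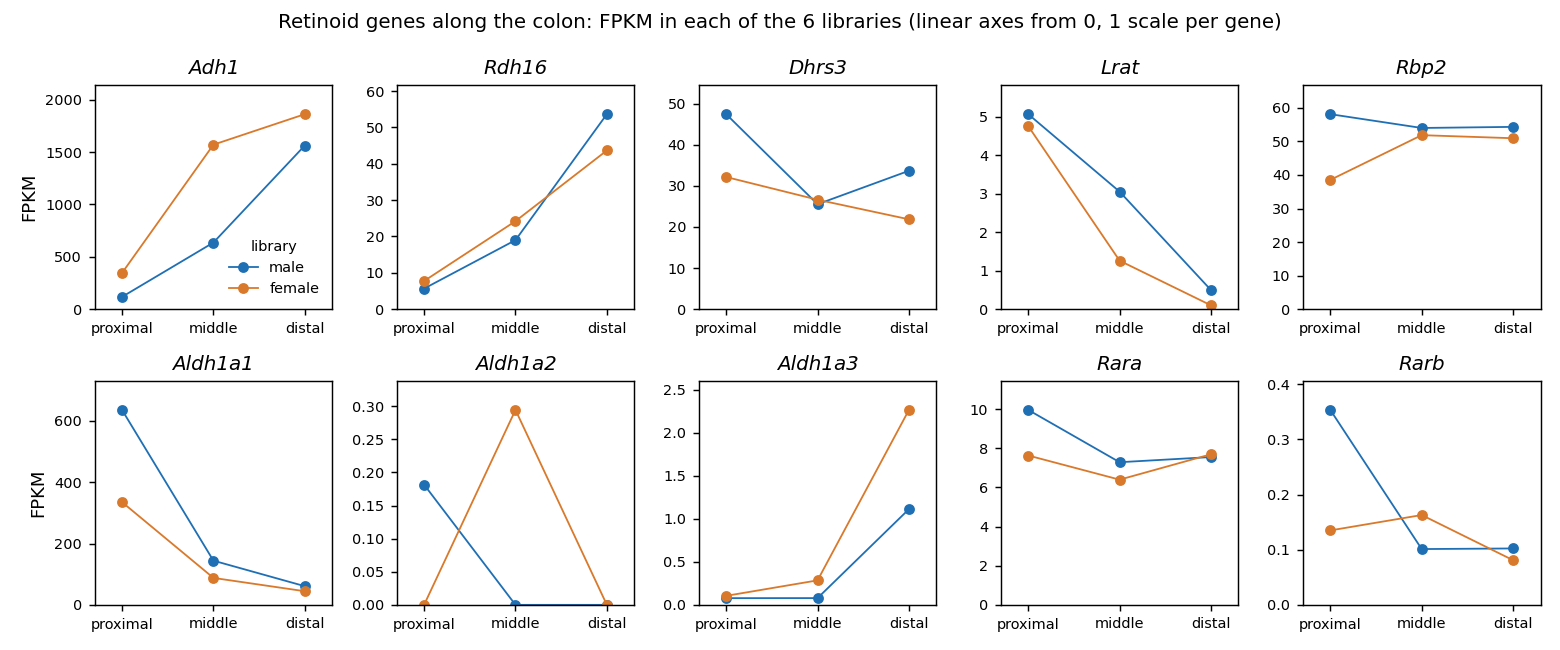
FPKM of each of the 10 retinoid genes (vertical axes, linear from 0, with a scale of its own per gene) in proximal, middle and distal colon (horizontal axes), with 1 point per library joined within a sex. Adh1 and Rdh16 climb and Aldh1a1 and Lrat decline from proximal to distal in both sexes, while Rbp2 and Rara stay within a narrow range.

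The 6 libraries held total FPKM of 546269 to 612818, and the spacing of the lowest values placed their depth at about 7.80 to 9.91 M fragments. Epithelial markers summed to 5392 to 6662 FPKM per library, mostly from Krt8 at 3318 to 4008 FPKM. Krt20 was at 694 (male) and 851 (female) FPKM in the proximal and 388 and 247 FPKM in the distal libraries. Vil1 was also lower and Cdh1 higher in both distal than in both proximal libraries, and no epithelial marker was called between these regions. Stromal markers summed to 2.41 to 6.69 FPKM, with Lum, Pdgfra and Des at 0 in at least 4 libraries, and mesothelial markers to at most 1.16 FPKM. Myeloid and dendritic cell markers summed to 2.87 to 9.72 FPKM, highest in the male proximal library, where C1qa had 6.52 FPKM. In proximal colon 7 lymphocyte markers summed to 36.0 FPKM (male) and 14.1 FPKM (female), against 4.37 and 7.24 FPKM in the middle and 3.38 and 2.69 FPKM in the distal colon. Ptprc, the gene of the leukocyte antigen CD45, had its highest levels in proximal colon too, 3.28 and 2.30 FPKM, and was not called. Of the 6 that passed the filter, 3 (Cd8a, Gzma and Gzmb) were called lower in distal than in proximal colon, against 7.64% of all tested genes, and Cd8a and Gzmb passed through their proximal libraries alone. The summed lymphocyte level was thus lower towards the distal colon, as were Aldh1a1 and Lrat, and its part in those differences was not tested. Small intestinal enterocyte markers summed to 50.1 FPKM (male) and 43.0 FPKM (female) in the proximal libraries, mostly from Alpi and Fabp6. They summed to 22.0 and 14.0 FPKM in the middle libraries, and to 12.4 and 19.8 FPKM, mostly from Fabp6, in the distal ones. Of the 3 that passed the filter, Alpi and Sis were called lower in distal than in proximal colon, against 7.64% of all tested genes. Alpi was at 24.0 and 26.1 FPKM in proximal and 1.55 and 1.04 FPKM in distal colon, and Sis at 5.42 and 2.22 against 0.0894 and 0.0885 FPKM. Fabp6 was not called, at 20.7, 5.71 and 10.7 FPKM from proximal to distal in males and 14.5, 10.2 and 18.6 FPKM in females. Sis passed through its proximal libraries alone. Apoa4 was at 0 in every library, Apoa1 and Lct at 0 in at least 4 of them, and the part of such cells in the differences was not tested either.

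Adh1 (chromosome 3, 138260991 to 138290698, mm10) encodes a class I alcohol dehydrogenase that oxidises ethanol and retinol. Males had 117 FPKM in proximal, 636 in middle and 1563 in distal colon, and females 345, 1571 and 1862 FPKM. Both distal libraries and both middle libraries lay above both proximal ones, while the female middle library reached the level of the male distal one. The distal level was thus 13.4 times the proximal level in males and 5.40 times in females. Mean levels were 231 ± 161 FPKM (SD, n = 2) in proximal and 1713 ± 212 FPKM in distal colon, and Adh1 rose by 3.08 (log2, SE 0.32, limma adjusted p = 0.0056). Among all entries it ranked 788 (male) and 256 (female) in proximal and 46 and 33 in distal colon, where it took 0.263% and 0.307% of all FPKM.

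Rdh16 (chromosome 10, 127801152 to 127846565) encodes a short-chain dehydrogenase of the group that oxidises retinol and related alcohols. From proximal to distal its level was 5.65, 19.0 and 53.7 FPKM in males and 7.74, 24.2 and 43.7 FPKM in females. The 3 regions did not overlap, and the order was the same in both sexes. From proximal to distal colon Rdh16 rose by 2.70 (log2, SE 0.19, limma adjusted p = 0.0023), or 9.50 times in males and 5.64 times in females. Its transcript is 94.5% identical to that of its neighbour Rdh9 over 2312 aligned bases, with a shared run of 229 bases. Reads can therefore be exchanged between the pair, and how the counting treated them is not given in the sources used here.

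Dhrs3 (chromosome 4, 144892827 to 144928209) encodes a dehydrogenase that works in the opposite direction, reducing retinal to retinol. Along the colon males had 47.5, 25.5 and 33.7 FPKM, and females 32.2, 26.6 and 21.9 FPKM. The male distal library lay above the female proximal one, so the ends of the colon overlapped. The distal minus proximal difference was -0.51 on the log2 scale (95% interval -0.96 to -0.06, limma adjusted p = 0.13) and did not pass the test. Without the male middle library, which adds to the estimate of the spread, the same difference reached an adjusted p of 0.0495. In proximal colon Dhrs3 was 8.40 times as high as Rdh16 in males and 4.16 times in females. In distal colon Rdh16 was instead 1.59 and 2.0 times as high as Dhrs3.

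Lrat (chromosome 3, 82892579 to 82903973) encodes lecithin retinol acyltransferase, which stores retinol as retinyl esters. It was low throughout: males had 5.07, 3.05 and 0.494 FPKM from proximal to distal, and females 4.76, 1.26 and 0.0978 FPKM. The regions did not overlap and the decline had the same order in both sexes. Between proximal and distal colon Lrat fell by 2.21 (log2, SE 0.23, limma adjusted p = 0.0056). With a pseudocount of 0.1 in place of 1 the difference was -3.87, since the distal levels lie under 1 FPKM. By the estimated depth, the female distal value corresponded to about 5 fragments (5.19) and the male one to 20.6.

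Rbp2 (chromosome 9, 98486115 to 98509781) encodes the cytosolic protein that carries retinol and retinal in absorptive cells of the intestine. Males had 58.1, 54.0 and 54.4 FPKM from proximal to distal, and females 38.5, 51.9 and 51.0 FPKM. The female proximal library stood lowest, and the other 5 lay between 51.0 and 58.1 FPKM. The distal minus proximal difference was 0.15 on the log2 scale (95% interval -0.24 to 0.54, limma adjusted p = 0.58), and the distal minus middle difference was -0.01 (95% interval -0.40 to 0.38, adjusted p = 0.99). Without the female proximal library the distal minus proximal difference turned to -0.10. In proximal colon Rbp2 was 11.5 (male) and 8.10 (female) times as high as Lrat, and in distal colon 110.1 and 521 times. These distal ratios rest on Lrat values of 0.494 and 0.0978 FPKM, about 20.6 and 5.19 fragments by the estimated depth, and are rough.

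Aldh1a1 (chromosome 19, 20492715 to 20643465) encodes retinaldehyde dehydrogenase 1. It made up 95.1% to 99.97% of the summed FPKM of Aldh1a1, Aldh1a2 and Aldh1a3 in every library, a sum that leaves out Aldh1a7. Males had 636, 144 and 60.9 FPKM in proximal, middle and distal colon, and females 335, 87.9 and 44.4 FPKM. No 2 regions overlapped, and the male library was the higher one in each region. Its mean went from 486 ± 213 FPKM (SD, n = 2) in proximal to 52.7 ± 11.6 FPKM in distal colon, and the fitted difference was -3.12 (log2, SE 0.14, limma adjusted p = 0.0011). The proximal level was 10.4 times the distal level in males and 7.54 times in females. Its neighbour and closest paralog Aldh1a7, with 89.9% identity over 2012 aligned transcript bases and a longest shared run of 100 bases, was at 21.7 to 27.9 FPKM in the 6 libraries. The Aldh1a7 difference between distal and proximal colon was -0.06 on the log2 scale (limma adjusted p = 0.72). Aldh1a1 was 25.2 (male) and 14.3 (female) times as high as Aldh1a7 in the proximal libraries, but only 2.45 and 2.05 times in the distal ones.

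Aldh1a2 (chromosome 9, 71215789 to 71296243) and Aldh1a3 (chromosome 7, 66390890 to 66427517) encode retinaldehyde dehydrogenases of the same family. Aldh1a2 had 0.182 FPKM in male proximal and 0.295 FPKM in female middle colon and was listed at 0 in the other 4, so it was not tested. For Aldh1a3 the male libraries listed 0.0781, 0.0786 and 1.11 FPKM from proximal to distal, and the female ones 0.105, 0.285 and 2.27 FPKM. Both distal libraries stood above the other 4, by the estimated depth with 29.9 and 77.3 fragments against 2.13 to 9.62. The distal minus proximal difference of Aldh1a3 was 1.27 (log2, SE 0.25, limma adjusted p = 0.029). It passed the filter through its distal libraries alone, so a difference was built into its selection for the test. With the male or the female distal library left out it missed the filter and could not be tested, and likewise with a minimum of 5 FPKM. With a pseudocount of 0.1 the difference was 3.15, and the call ended without the male middle, female middle or female proximal library (limma adjusted p = 0.054, 0.055 and 0.093). Even at its highest, in the female distal library, Aldh1a3 was 4.85% of the summed FPKM of Aldh1a1, Aldh1a2 and Aldh1a3, without Aldh1a7.

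The ratio of Adh1 to Aldh1a1 was higher in each region further along the colon in both sexes. In the male proximal library Aldh1a1 was 5.45 times as high as Adh1, and in the female one the genes were nearly equal, with Adh1 1.03 times as high. Adh1 was the higher gene by 4.41 and 17.9 times in the middle and by 25.7 and 41.9 times in the distal libraries of males and females. Of the 10 genes, Adh1 had the highest FPKM in 5 libraries, and Aldh1a1 led in the male proximal one. In the female distal library Aldh1a1, at 44.4 FPKM, came after Rbp2, at 51.0 FPKM.

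**Figure D2:**
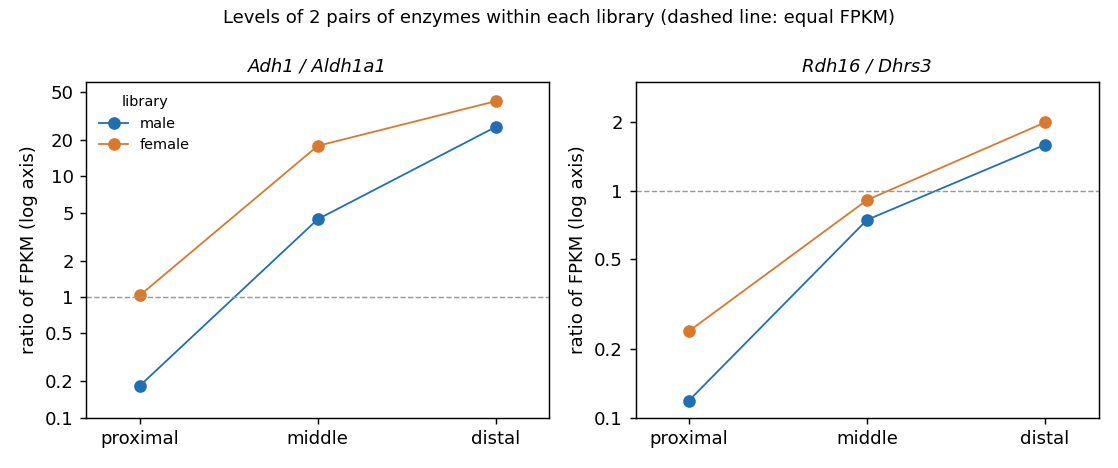
Ratio of FPKM within each library (log axes) for Adh1 over Aldh1a1 (left) and Rdh16 over Dhrs3 (right) in the 3 regions, with 1 point per library and a dashed line at equal FPKM. Adh1 over Aldh1a1 goes from 0.184 (male) and 1.03 (female) in proximal to 25.7 and 41.9 in distal colon, and Rdh16 over Dhrs3 from 0.119 and 0.241 to 1.59 and 2.0.

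Rara (chromosome 11, 98927818 to 98974942) and Rarb (chromosome 14, 16430839 to 16819156) encode the alpha and beta retinoic acid receptors. For Rara males had 9.96, 7.29 and 7.55 FPKM from proximal to distal, and females 7.63, 6.39 and 7.69 FPKM. The male proximal library was highest and the proximal and distal groups overlapped. Its distal minus proximal difference was -0.17 on the log2 scale (95% interval -0.52 to 0.17, limma adjusted p = 0.46). Rarb had 0.354, 0.101 and 0.102 FPKM in males and 0.135, 0.163 and 0.0810 FPKM in females, about 2.47 to 8.81 fragments by the estimated depth, and did not pass the filter. The annotated end of Rarb overlaps Top2b on the other strand, and whether the counting used strand is not given in the sources used here.

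Promoter windows of 300 bases, 250 before and 50 after each annotated start, were matched for 9 of the 10 genes from RefSeq (GRCm38.p6), and Aldh1a3 was not matched. Each was searched on both strands for the hexamers of retinoid receptors (the consensus AGGTCA, its second common form AGTTCA, and with another first base GGGTCA as well as the form GGTTCA), alone or as repeats 1, 2 or 5 bases apart on 1 strand, and for TATAAA. Single hexamers occurred in 43.7% of all 32851 windows, and TATAAA in 13.6%. The repeat 5 bases apart, the classical retinoic acid response element, occurred in 0.0974%, and among the windows of the 9 genes it was found in Rarb alone. It lies at chr14:16575513-16575529, 53 to 37 bases before the Rarb start. No window of the 9 genes held a repeat 1 or 2 bases apart, which 0.222% and 0.268% of all windows held. The stretches below are shown because they belong to the 4 genes that were called with levels of several FPKM, to Rbp2, which was not called, and to the receptor gene with the repeat. They are the last bases before the start, on the strand of the gene, with matches to a hexamer or to TATAAA on either strand in capitals. A match is a description of letters and not a measured binding site.
Rarb, chr14:16575477-16575576, minus strand: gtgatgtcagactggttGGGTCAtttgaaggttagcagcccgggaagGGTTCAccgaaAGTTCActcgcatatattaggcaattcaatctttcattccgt
Aldh1a1, chr19:20601868-20601967, plus strand, 1 of its 2 starts: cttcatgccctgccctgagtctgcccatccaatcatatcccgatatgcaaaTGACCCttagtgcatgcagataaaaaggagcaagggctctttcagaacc
Lrat, chr3:82903975-82904074, minus strand: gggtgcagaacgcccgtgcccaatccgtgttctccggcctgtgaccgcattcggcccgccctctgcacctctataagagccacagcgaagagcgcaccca
Adh1, chr3:138277485-138277584, plus strand: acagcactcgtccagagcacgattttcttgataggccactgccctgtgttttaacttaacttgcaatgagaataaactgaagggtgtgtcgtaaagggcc
Rdh16, chr10:127801053-127801152, plus strand: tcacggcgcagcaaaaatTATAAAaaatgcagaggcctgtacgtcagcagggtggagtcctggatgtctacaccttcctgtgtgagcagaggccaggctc
Rbp2, chr9:98490432-98490536, plus strand: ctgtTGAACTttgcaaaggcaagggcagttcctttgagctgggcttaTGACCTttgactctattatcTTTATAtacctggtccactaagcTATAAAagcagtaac
The Aldh1a1 stretch held a single hexamer, and those of Adh1, Lrat and Rdh16 held none, though the Rdh16 window held one further from the start. Among the genes not called, the Rbp2 stretch held the matches TGAACT and TGACCT, and the windows of Rara held several hexamers. Of the 71 genes of the retinoid lists described next, Rarb and Cyp26a1 were those found with a window holding the repeat 5 bases apart. How many of the 71 had a window at all was not counted. Both genes were low, with highest values of 0.354 FPKM for Rarb and 0.0790 FPKM for Cyp26a1.

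The middle colon was set against each end. Between middle and proximal colon 2 of the 8 tested genes were called higher and 1 lower, against 1.19% and 1.25% of all tested genes, or 2.45% in either direction. Without overlap between the groups, 2 of the 8 were higher and 4 lower, against 21.6% and 22.2% of all tested genes, 43.8% in all. Aldh1a1 was 2.03 lower on the log2 scale in the middle (SE 0.14, limma adjusted p = 0.017), Adh1 2.31 higher (SE 0.32, adjusted p = 0.034) and Rdh16 1.56 higher (SE 0.19, adjusted p = 0.028). All 3 calls ended with sex left out of the model (limma adjusted p = 0.10, 0.16 and 0.053), with no filter (0.088, 0.11 and 0.095) and without the female middle library (0.15, 0.23 and 0.20). Those of Adh1 and Rdh16 also ended without the male middle library (limma adjusted p = 0.12 and 0.11), and that of Adh1 with no variance trend (0.055). Lrat was -0.97 (limma adjusted p = 0.10) with no overlap between the groups. Between distal and middle colon 0 of the 8 were called by limma, against 0.499% of all tested genes (0.11% higher and 0.389% lower). An unadjusted limma p under 0.05 was reached by 4 of the 8, against 1499 of all 11815 tested genes. These 4 were Aldh1a1 (-1.10, limma adjusted p = 0.059), Rdh16 (1.14, 0.099), Lrat (-1.24, 0.12) and Aldh1a3 (1.16, 0.16), and their groups did not overlap. The selection of Aldh1a3 through its distal libraries alone bears on this comparison too. With Rara, 3 of the 8 lay wholly higher in distal than in middle colon and 2 wholly lower, against 20.5% and 19.1% of all tested genes, 39.7% in all. Without either proximal library Aldh1a1, Rdh16 and Lrat passed the threshold (limma adjusted p = 0.0071 to 0.035). Adh1 differed by 0.77 between distal and middle colon (95% interval -0.03 to 1.57, limma adjusted p = 0.41).

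**Figure D3:**
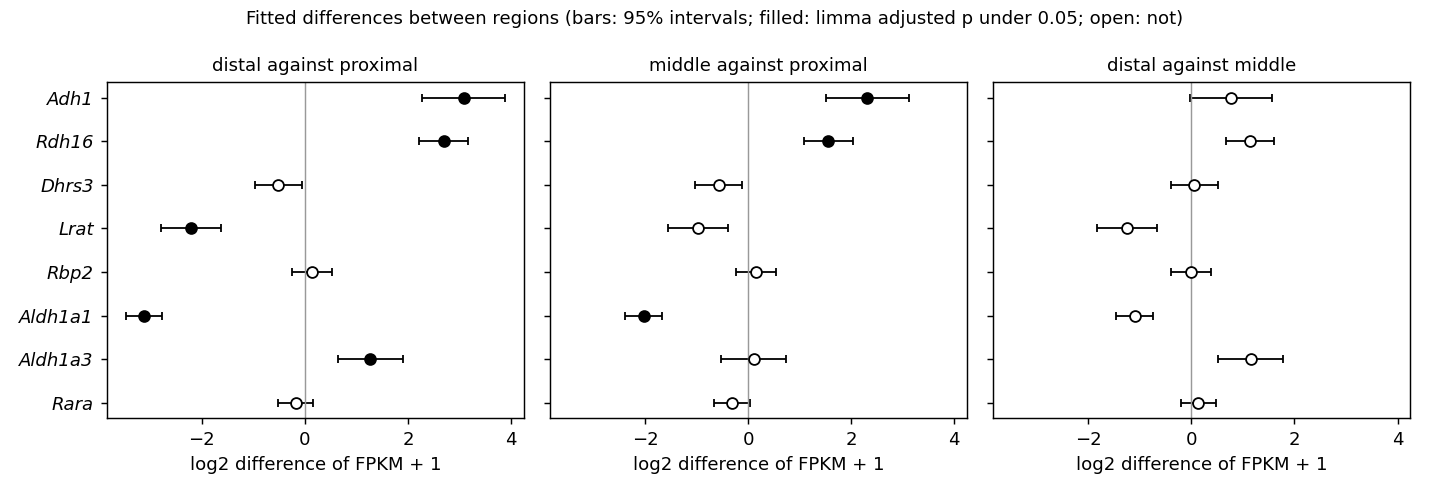
Fitted log2 differences of FPKM + 1 (horizontal axes) for the 8 tested genes in the 3 comparisons of regions, with 95% intervals, filled where the limma adjusted p is under 0.05 and open where it is not. Distal against proximal has 5 filled points, middle against proximal has 3 and distal against middle has none.

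Male and female libraries were also compared, with region in the model and 1 library per sex and region. Limma called 0 of the 8 genes, against 0.0423% of all tested genes (0.00846% higher and 0.0339% lower in females). An unadjusted limma p under 0.05 was reached by 2 of the 8, against 1256 of all 11815 tested genes. The female library was higher for Adh1 in 3 of 3 regions, by 2.96 times in proximal, 2.47 times in middle and 1.19 times in distal colon, a difference of 1.04 (log2, SE 0.26, limma adjusted p = 0.41). Aldh1a1 was lower in the female library in 3 of 3 regions, with male levels 1.90, 1.64 and 1.37 times as high (log2 difference -0.69, SE 0.11, adjusted p = 0.33). Rbp2 was lower in all 3 female libraries than in any male library (log2 difference -0.24, limma adjusted p = 0.53), and was the 1 gene of the 8 without overlap between the sexes. Over all tested genes 4.64% were lower in females without overlap and 4% higher, 8.64% in all.

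The other genes of the pathway were read from lists by function, 71 genes with the 10 above included, of which 46 passed the filter. Between distal and proximal colon 5 were called higher, 14 lower and 27 were not called, against 6.47% of all tested genes higher and 7.64% lower. These shares also stand behind the counts of each list below. The lists were chosen with earlier results of these data known, so the counts beside these shares are a description only. Aldh1a3 and Rdh1 passed the filter only through the region where they were high, so their calls had a difference built in. The median log2 difference of the 46 was -0.15, against 0.01 over all genes. Without the 10 genes the counts were 2 higher and 12 lower of 38. In the middle against the proximal colon 4 of the 46 were called higher and 6 lower, against 1.19% and 1.25% of all tested genes. Between distal and middle colon 0 were called higher and 2 lower, against 0.11% and 0.389%.

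Among binding proteins and carriers (6 tested of 10), 1 was called higher and 2 lower in distal than in proximal colon, with a median of -0.34. Ttr, the plasma carrier of thyroxine and of retinol-binding protein, rose by 3.22 in log2 units (SE 0.31, limma adjusted p = 0.0044). Males had 2.69, 12 and 42.9 FPKM along the colon, and females 5.16, 33.3 and 44.1 FPKM. Stra6l, a membrane receptor for retinol-binding protein, went from 11.9 ± 0.705 FPKM (SD, n = 2) in proximal to 4.16 ± 0.212 FPKM in distal colon and fell by 1.32 (SE 0.12, adjusted p = 0.0042). Fabp5, a fatty acid-binding protein that can also carry retinoic acid, fell by 1.78 (SE 0.36, limma adjusted p = 0.031, but 0.20 without the male distal, 0.057 without the female distal library and 0.084 with no filter). Rbp4, the retinol-binding protein itself, peaked in the middle, at 10.4 FPKM (male) and 9.73 FPKM (female), against 2.76 to 5.14 FPKM at both ends. It was 0.93 higher in the middle than in proximal colon (limma adjusted p = 0.032), a call that ended in 7 of 13 alternatives. Rbp4 was also 1.45 lower in distal than in middle colon (limma adjusted p = 0.026), a call that ended in 5 of 13 alternatives. Crabp1, Crabp2 and Stra6 did not pass the filter.

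Ester and lipid enzymes (6 tested of 8) had 0 called higher and 4 lower, with a median of -1.46. Besides Lrat these were the lipases Mgll, Lpl and Lipe. Mgll, monoglyceride lipase, fell by 3.77 in log2 units (SE 0.28, limma adjusted p = 0.0026), in males from 54.7 to 3.50 FPKM and in females from 30.2 to 1.07 FPKM. Lpl, lipoprotein lipase, fell by 2.38 (SE 0.19, adjusted p = 0.0031). Lipe, hormone-sensitive lipase, fell by 0.71 (adjusted p = 0.049), and its call ended in 9 of 13 alternatives. Dgat1, which can also esterify retinol, was at 31.6 to 38.0 FPKM, and Pnpla2, the lipase with the highest level of this list, at 70.0 to 111 FPKM.

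Of the carotenoid genes (4 tested of 5, median 0.25), 1 was called lower. Isx, an intestinal homeobox gene that retinoic acid induces and that represses Bco1 and Scarb1, fell by 6.19 in log2 units (SE 0.26, limma adjusted p = 0.0011). Males had 175, 50.7 and 1.84 FPKM from proximal to distal, and females 95.9, 12 and 0.130 FPKM. Bco1, the carotene-cleaving oxygenase, was singled out after its values were seen. Males had 0.822, 0.769 and 2.27 FPKM, and females 0.842, 2.14 and 2.23 FPKM (distal minus proximal 0.83, limma adjusted p = 0.11). Scarb1, a lipid and carotenoid transporter, was at 8.24 to 12.9 FPKM with a difference of 0.17 (adjusted p = 0.62).

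In the dehydrogenase list (13 tested of 21, median -0.09) 3 were called higher and 2 lower. Rdh9 rose by 1.32 beside Adh1 and Rdh16 (SE 0.24, limma adjusted p = 0.024, but 0.13 without the male distal library and 0.063 with no filter), and shares the sequence named above with Rdh16. Rdh1, a close relative of both, fell by 1.46 (SE 0.25, adjusted p = 0.021), from 2.17 and 1.91 FPKM in the proximal to 0.103 and 0.109 FPKM in the distal libraries. Rdh1 passed the filter through its proximal libraries alone, so a difference was built into its selection. With a pseudocount of 0.1 the difference was -3.37, and without the male or the female distal library its limma adjusted p was 0.18 and 0.067. Adh5, class III alcohol dehydrogenase, fell by 1.44 (SE 0.27, adjusted p = 0.024, but 0.15 without the male distal library and 0.064 with no filter). It was at 153 and 87.6 FPKM in the proximal and 37.1 and 47.4 FPKM in the distal libraries. In the proximal libraries Adh1 was 0.764 (male) and 3.94 (female) times as high as Adh5, and in the distal libraries 42.1 and 39.3 times as high. Rdh10, which oxidises retinol in the embryo, was singled out after its values were seen and ranged from 11.5 to 15.0 FPKM. Rdh16 was 0.438 and 0.591 times as high as Rdh10 in the proximal libraries and 4.65 and 2.91 times as high in the distal ones.

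For retinal oxidation (4 tested of 7) the 2 calls were Aldh1a1 and Aldh1a3, in opposite directions, and the median was -0.25. Aldh1b1, a mitochondrial aldehyde dehydrogenase, was at 94.8 to 192 FPKM and was not called (-0.44, limma adjusted p = 0.25). The 3 Cyp26 genes of retinoic acid breakdown did not pass the filter, and their highest value was 0.113 FPKM for Cyp26b1 in the male distal library.

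Receptors and partners (5 tested of 7, median -0.17) had 0 called higher and 2 lower. Rarg, the gamma receptor, fell by 1.01 in log2 units (SE 0.12, limma adjusted p = 0.0081, but 0.076 and 0.051 without the male or the female distal library). It went from 9.65 to 4.44 FPKM in males and from 8.49 to 3.61 FPKM in females. Rara was thus 1.03 and 0.899 times as high as Rarg in the proximal and 1.70 and 2.13 times as high in the distal libraries. Rxra, the shared partner of these receptors, fell by 0.50 (SE 0.11, adjusted p = 0.039), and its call ended in 8 of 13 alternatives. Ppard, a receptor that also pairs with RXR, was the most abundant of this list at 74.6 to 91.6 FPKM. Of 6 coregulators (median -0.01) 1 was called, the corepressor gene Ncor1, which fell by 0.45 (adjusted p = 0.043) and whose call ended in 9 of 13 alternatives.

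Of 13 genes known to respond to retinoic acid, 5 passed the filter, and 3 of them were called lower in distal colon (7.64% over all tested genes), Isx, Lrat and Tgm2, with a median of -2.21 over the 5. Tgm2, tissue transglutaminase, fell by 2.81 in log2 units (SE 0.19, limma adjusted p = 0.0023). Males had 19.6, 3.12 and 1.37 FPKM along the colon, and females 11.2, 2.24 and 1.17 FPKM. Dhrs3 and the intestinal homeobox gene Cdx1 were not called, Cdx1 at 210 to 250.2 FPKM. The other 8, among them Rarb, Cyp26a1, Cyp26b1, Stra6 and Crabp2, did not pass the filter. In the middle colon Isx and Tgm2 were already lower than in proximal colon, with differences of -2.33 and -2.12 (limma adjusted p = 0.026 and 0.024). Each of these calls ended in 4 of 13 alternatives, among them the run without the female middle library.

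**Figure D4:**
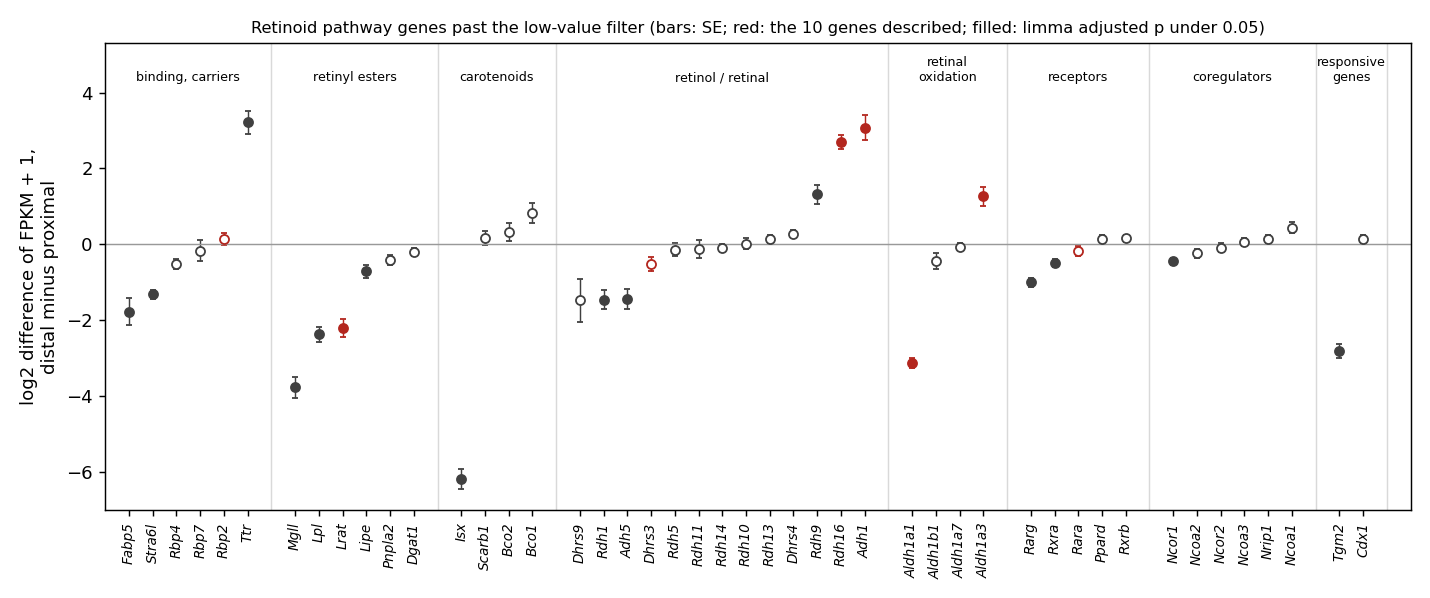
Log2 difference of FPKM + 1, distal minus proximal (vertical axis), with its SE for the 46 tested genes of the retinoid lists, each drawn once and grouped by function. Red points are among the 10 genes described first, and filled points have a limma adjusted p under 0.05; Isx lies lowest at -6.19 and Ttr highest at 3.22.

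The genes closest in pattern were found by Pearson's r of log2(FPKM + 1) over the 6 libraries, among 8655 other genes with a mean of at least 5 FPKM. This measure ignores the size of a change and rests on 6 points that share 3 regions and 2 sexes, and it is given as a description. Closest to Aldh1a1 were Prap1 (r = 0.998), 2210407C18Rik (0.998) and Spryd7 (0.997), with 291 genes over 0.95. Prap1 spanned 145 FPKM in the male proximal library to 0 in the female distal one, and Spryd7 only 22.0 to 8.19 FPKM. Closest to Adh1 were Tspan33 (0.999), Il34 (0.999) and Tmem168 (0.998), with 347 genes over 0.95. Il34, a cytokine of the macrophage growth factor receptor, was at 0.487 and 2.62 FPKM in the proximal and 10.6 and 12.4 FPKM in the distal libraries. For Rdh16 they were Copz1 (0.996), Fam133b (0.995) and Gnptab (0.995), with 249 over 0.95. Among the closest to Rara were Cpt1a (0.995) and Clpb (0.981). Dhrs3 was closest to Insl6 (0.991), Acot2 (0.983) and Pank4 (0.983), and Rbp2 to Fam129b (0.973), the microRNA entry Mir546 (0.972) and Zfp207 (0.970). Only 5 genes exceeded 0.95 for Rbp2 and 12 for Dhrs3. Between the genes described, Adh1 and Rdh16 had r = 0.94, Aldh1a1 and Lrat 0.95, and Aldh1a1 with Adh1 and with Rdh16 -0.98 and -0.98.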

How the data were processed

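RNA libraries of polyadenylated transcripts were made with a strand-specific kit from column-purified total RNA, per the labels' protocols. The values are FPKM per gene symbol, deposited by the authors in 1 table per library. Per the submitters' processing notes Cuffdiff 2.2.1, TopHat2 2.1.1, SAMtools 0.1.18 and Bowtie2 2.2.8 were used, on mm10; settings, annotation and use of strand: not given in the sources used here. No count model was applied to FPKM.

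Genes with at least 1 FPKM in at least 2 libraries (11815 of 24346) were fitted as log2(FPKM + 1) with limma 3.58.1 in R 4.3.3 on region and sex, with a variance trend (2 residual and 3.49 prior degrees of freedom). For genes near or under 1 FPKM this scale makes changes look smaller. An interaction of region with sex would leave 0 residual degrees of freedom, so none was tested. Sex matches the libraries across regions by label; replicate numbers follow deposition order. The fit was tested on simulated data.

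Depth was estimated from the spacing of values under 0.2 FPKM in genes with 1 annotated transcript over 1500 bases, assuming fragments of 200 bases; 80.6% to 85.4% of these values lay within 0.15 of a whole fragment. Fragment numbers use the longest GENCODE M21 transcript and are approximate. Coordinates are from GENCODE M21 (mm10), promoters from RefSeq GRCm38.p6. Transcripts were aligned with Biopython 1.88 and figures drawn with matplotlib 3.10.9 in Python 3.11.15.

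The 10 genes, the lists and the tests were chosen with earlier results of these data known. Named besides the 10 were list genes called between any regions, the 2 most abundant of each list, and the 3 genes closest in pattern to each of the 10 with a mean of at least 5 FPKM; Aldh1a7, Bco1, Rdh10 and genomic neighbours were added after their values were seen. A few genes taken by these rules are left unreported. Each choice was also varied: the pseudocount (0.1), the filter (none, or 5 FPKM), the scaling (quantiles, or median ratios), the variance trend (off), the model (without sex, or without region) and the libraries (each left out in turn).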

Additional observations from a re-analysis of the deposited data

Results flagged for a closer look

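Some genes moved in opposite directions in the male and the female libraries. Each sex has 1 library per region, so these differences between the sexes were not tested; values are the female minus the male change on the log2(FPKM + 1) scale. For Rbp2 the distal minus proximal change was -0.10 in males and 0.39 in females (0.49), the middle minus proximal change -0.10 and 0.42 (0.52), and the distal minus middle change 0.0085 and -0.0252 (-0.0337). Dhrs3 changed by 0.39 in males and -0.27 in females between distal and middle colon (-0.66), and Rara by -0.36 and 0.01 between distal and proximal colon (0.37). Among the other retinoid genes, Scarb1 had values of -0.67 for distal minus proximal and -0.60 for middle minus proximal. For middle minus proximal they were 1.35 for Fabp5, -0.25 for Dgat1 and -0.32 for Nrip1. For distal minus middle they were -0.37 for Lipe, -0.48 for Rdh9, -0.33 for Aldh1b1 and 0.15 for Ncor1.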

How the results depend on the processing

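The distal against proximal calls of Aldh1a1, Adh1, Rdh16 and Lrat held in every alternative run, 13 for each of the first 3 and 12 for Lrat, which missed the 5 FPKM minimum. Over all genes the count called between distal and proximal colon was 1668, and 334 to 1518 with 1 library left out, lowest without the male distal library (334) and the female distal library (779). The middle against proximal count of 289 fell to 4 with no filter, 187 with no variance trend and 24 with sex left out, and was 0 (without the female middle library) to 777 (without the female proximal one) with 1 library left out. For distal against middle it was 59, then 2 with no filter, 29 with no variance trend and 17 with sex left out, and 0 (without the male distal library) to 426 (without the female proximal one) with 1 library left out. The female against male count was 5, and 3 to 25 with 1 library left out. Leaving out 1 library makes the remaining one of that region rest on the spread of the other regions. Reversals among the 10 genes were limited to values near 0. Rbp2 ranged from -0.104 (without the female proximal library) to 0.403 for distal against proximal and from -0.0956 (again without it) to 0.411 for middle against proximal colon, and Aldh1a3 from -0.0933 (without it) to 0.312 for middle against proximal. For distal against middle Rbp2 ranged from -0.148 to 0.131, above 0 without the male distal (0.106) or the female middle library, and Dhrs3 from -0.260 to 0.373, under 0 without the male middle or the male distal library (-0.122). The causes were not tested. Of the calls of the other pathway genes, 6 of 14 held in every alternative between distal and proximal colon, 0 of 7 between middle and proximal and 0 of 2 between distal and middle, and none reversed. Labels carry no replicate numbers; the fit with no replicate block is the one with sex left out, with 1240 calls between distal and proximal colon, 24 between middle and proximal and 17 between distal and middle. Depth limits Aldh1a2, Rarb and the Cyp26 genes, whose values stand for few fragments.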

Other observations

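Neighbouring dehydrogenase genes differed in their levels along the colon. On chromosome 10, Rdh1 (127759721 to 127768297), Rdh9 (127776386 to 127792697), Rdh16 and Rdh19 (127849928 to 127861176) lie side by side on the plus strand. Between proximal and distal colon Rdh9 and Rdh16 rose by 1.32 and 2.70 on the log2 scale (limma adjusted p = 0.024 and 0.0023). Rdh1 was at 2.17 and 1.91 FPKM in the proximal and 0.103 and 0.109 FPKM in the distal libraries, and passed the filter through its proximal libraries alone, so its test had a difference built in. Rdh19, which did not pass the filter, was at 0 and 0.133 FPKM in the proximal and 0.904 and 0.895 FPKM in the distal libraries. On chromosome 3, Adh5 (138443093 to 138455499), 152395 bases beyond Adh1, fell by 1.44 where Adh1 rose by 3.08 (limma adjusted p = 0.024 and 0.0056), and Adh4, Adh6a and Adh7 between or beside them had means of 0.0189, 0.276 and 0.285 FPKM over the 6 libraries. The neighbours were singled out after their values were seen. These genes are related in sequence, and how the counting treated reads they share is not given in the sources used here.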
